A study of Homo sapiens with 12 samples.

Results

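The AP-1 and EGR transcription factors were examined in U937, an acute myeloid leukemia (AML) cell line of monocytic character. All transcripts in the count matrix annotated to FOS, FOSB, FOSL1, FOSL2, JUN, JUNB, JUND, EGR1, EGR2 or EGR3 were taken, which gave 46 of 197782 transcripts and 10 of 44786 gene symbols. Reads were found for 19 of the 46, and 8 passed the filter on low values (10 normalized reads or more in 3 or more of the libraries). Of these 8, 7 were protein-coding and were tested among 9016 protein-coding transcripts, 1 each for FOS, FOSL2, JUN, JUNB, JUND, EGR1 and EGR3. The eighth was a FOS transcript without a defined coding sequence.

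The 4 groups of 3 libraries each were untreated cells, cells given 200 nM decitabine (DAC, a DNA-hypomethylating nucleoside), cells given 1 µM all-trans retinoic acid (ATRA, a retinoic acid receptor ligand) and cells given both. All groups shared the same medium, with GM-CSF according to the labels. DAC was renewed daily for 3 days, and the paper places ATRA, dissolved in DMSO, on the last of these days only, whereas the labels give a single treatment period for both. The labels also give 96 h for the untreated cells and 72 h for the treated cells, so culture time and treatment cannot be told apart if those labels hold. The supplementary methods say that control cells received vehicle, while the labels call these cells untreated, and the paper also lists untreated and DMSO cells apart, so whether these libraries had DMSO is not settled. The series describes its replicates as technical triplicates of 1 cell line, so the p-values measure the spread between these libraries.

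Between 8042435 and 10683593 reads were counted per library, and 3 reads corresponded to 2.50 to 3.71 normalized reads. Of 12 myelomonocytic marker genes, 8 reached a summed value of 10 in every untreated library, among them MPO, the granule peroxidase, with 52120 ± 3077 (SD, n = 3), while PTPRC was listed at 0 throughout. Of 10 erythroid and megakaryocyte markers, 6 were listed at 0 in all 12 libraries, including the hemoglobin genes HBA1, HBA2, HBB and HBG1. How ambiguous reads were counted is not stated, so a listed 0 does not by itself show that a gene is silent, PTPRC included. The lymphoid marker list was not silent. Its 7 genes summed to 158 to 168 in untreated cells and to 1343 to 1426 with DAC + ATRA, mostly from CD79A, a B cell receptor component.

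AP-1 is a dimer of basic leucine zipper (bZIP) proteins, in which a JUN protein pairs with another JUN or with a FOS protein and binds the TGACTCA element. EGR proteins are zinc finger factors that bind GC-rich elements. Many genes of both families are immediate-early genes: growth factor and stress signals reach serum response factor (SRF) and its ternary complex partners through MAP kinases, and transcription starts without new protein synthesis. In myeloid cells, EGR1 and JUN are known for their part in monocyte and macrophage differentiation, and JUNB is known as a brake on the growth of myeloid precursors.

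The sequences upstream of the 10 genes are shown first because the members share elements there that could be set beside their levels. In the 500 bases before each transcription start (hg38), the CArG box, which is the DNA element bound by SRF and consists of CC, a run of A and T, and GG, was found in 5 of the 10 members. Among the same windows of 7441 tested genes, 2.49% held it. FOS and FOSB each had 1 CArG box, EGR1 had 5, EGR2 had 2 and EGR3 had 1, while FOSL1, FOSL2 and the 3 JUN genes had none. The stretches below hold the CArG boxes of EGR1, of FOS and FOSB and the proximal box of EGR2, in capitals, and for FOSB also the cAMP response element TGACGTCA.
EGR1 distal (chr5:138465054-138465133, plus strand): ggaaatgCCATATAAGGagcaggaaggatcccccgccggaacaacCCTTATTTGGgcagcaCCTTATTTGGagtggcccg
EGR1 proximal (chr5:138465364-138465413, plus strand): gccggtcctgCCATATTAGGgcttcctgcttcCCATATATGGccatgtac
FOS (chr14:75278498-75278537, plus strand): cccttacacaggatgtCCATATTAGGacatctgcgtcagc
FOSB (chr19:45467661-45467740, plus strand): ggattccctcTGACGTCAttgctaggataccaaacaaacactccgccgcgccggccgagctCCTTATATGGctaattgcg
EGR2 (chr10:62816417-62816456, minus strand): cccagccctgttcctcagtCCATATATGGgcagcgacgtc

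The JUN genes carried other letters. JUN held TGACATCA, an AP-1-like element that was searched for because it is a site of the JUN gene itself. This match was thus fixed in advance, and 1.95% of the tested genes' windows held the same letters. JUND held TGACGTCA (3.39% of windows). No match to any of these motifs was found for JUNB, FOSL1 or FOSL2. The consensus AP-1 element TGACTCA (5.5% of windows) and the EGR element GCGTGGGCG (1.69% of windows) were in none of the 10 windows. The stretches with the matches are given here in the direction of transcription, with the matches in capitals.
JUN (chr1:58784088-58784137, minus strand): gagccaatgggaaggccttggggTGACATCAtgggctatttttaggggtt
JUND (chr19:18281803-18281837, minus strand): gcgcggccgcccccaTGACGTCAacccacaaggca
The windows held 31 (JUNB and EGR3) to 72 (JUND) CpG dinucleotides, the sites of DNA methylation, against a median of 32 over the tested genes. A match to letters is a description of the sequence and not an observed binding site, and both strands were searched. For FOSB and FOSL1 the window of the full-length transcript was used.

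**Figure D1:**
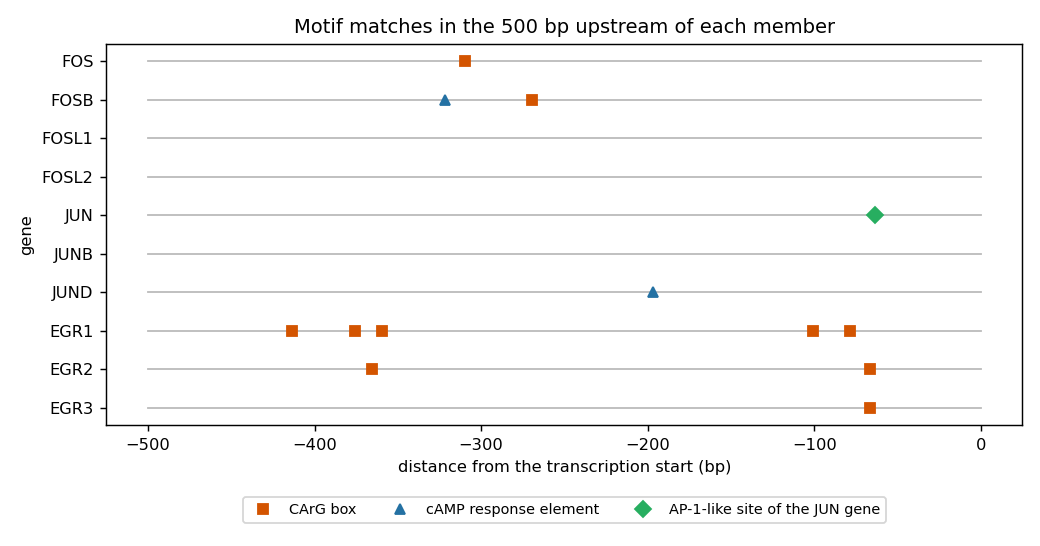
Positions of motif matches, in bp before the transcription start, in the 500 bp upstream of each of the 10 genes (grey lines). CArG boxes (squares) were found for FOS, FOSB and the 3 EGR genes, with 5 at EGR1. FOSB and JUND held a cAMP response element (triangles), JUN held the AP-1-like element (diamond), and FOSL1, FOSL2 and JUNB held no match.

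With DAC, 5 of the 7 tested members were higher than in untreated cells and none was lower, with JUN, JUNB, JUND, EGR1 and EGR3 passing the test (limma on log2(normalized read count + 1), Benjamini-Hochberg adjusted p under 0.01 over all 9016 transcripts). Over all transcripts tested, 39.3% passed in either direction, 30.6% upwards and 8.7% downwards. The median log2 fold change was 1.42 over the 7 members and 0.22 over all transcripts. With ATRA alone, none of the 7 was higher and 2, JUN and FOSL2, were lower, against 9.14% of all transcripts passing in either direction, 6.47% upwards and 2.67% downwards. The ATRA median over the members was 0.35, or -0.23 when EGR3 was set to 3 reads per untreated library, and that over all transcripts was 0.00. With DAC + ATRA, 5 members were higher and FOSL2 was lower, against 46.8% of all transcripts in either direction, 32.6% upwards and 14.2% downwards. EGR3 reached the filter on low values only through libraries with DAC, so that its call was fixed by the filter. Without it 4 of 6 members were higher with DAC (median log2 1.34) and 4 of 6 with DAC + ATRA (median 1.31). Over all transcripts with at least 1 untreated library at 10, an alternative chosen after seeing the data, 23.6% and 24.7% were higher. DAC and DAC + ATRA share the untreated libraries, so the 2 counts are not independent. In bulk RNA, a change in the number of cells that express a gene and a change in RNA per cell cannot be told apart.

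**Figure D2:**
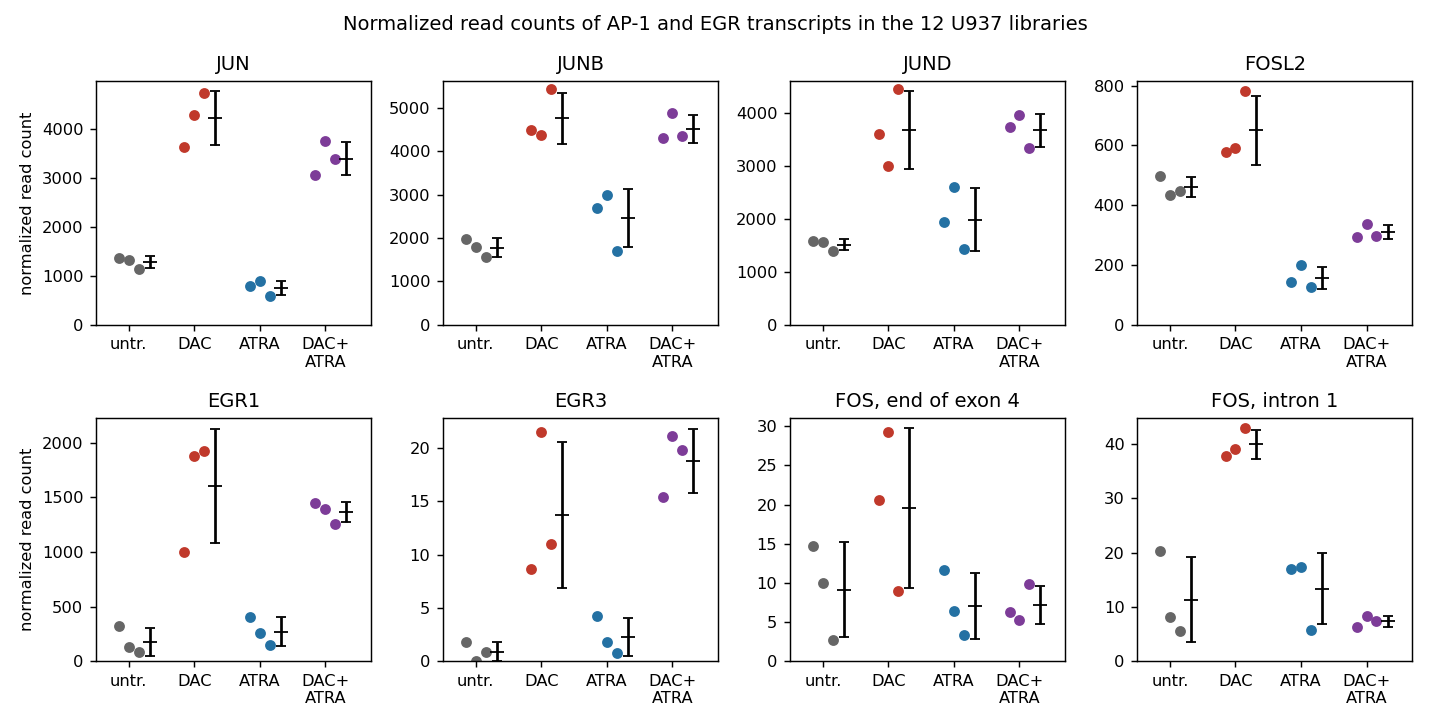
Normalized read counts of 8 member transcripts in each of the 12 libraries (points, 3 per group), with the mean and SD of each group (black bar) beside them and a y axis from 0 in each panel. The DAC libraries lay above all untreated libraries in every panel but that of the end of FOS exon 4, while the DAC + ATRA libraries were low in both FOS panels.

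JUN, the founding AP-1 subunit and a strong activator (ENST00000371222, chr1:58780791-58784047, minus strand, a single exon), had normalized read counts of 1372, 1324 and 1147 in the untreated libraries. DAC libraries had 3639, 4303 and 4742, ATRA libraries 784, 889 and 593, and DAC + ATRA libraries 3068, 3759 and 3386. Every DAC and DAC + ATRA library lay above every untreated library, and every ATRA library lay below. The rise with DAC was 3.29-fold (log2 fold change 1.72, SE 0.13, adjusted p = 9.67e-10) and that with DAC + ATRA 2.66-fold (log2 1.41, adjusted p = 1.48e-08). With ATRA alone JUN fell to 0.584 of the untreated level (log2 -0.78, SE 0.13, adjusted p = 2.49e-04). The DAC and DAC + ATRA libraries overlapped, and their difference did not pass the test (log2 -0.31, 95% interval -0.59 to -0.03, adjusted p = 0.127).

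JUNB, which binds the same sites as JUN but activates them weakly (ENST00000302754, chr19:12791486-12793315, plus strand, a single exon), was read 1982, 1805 and 1553 times per library after normalization in untreated cells. The values were 4489, 4371 and 5432 with DAC, 2698, 3000 and 1708 with ATRA, and 4302, 4881 and 4367 with DAC + ATRA. All 6 libraries that had received DAC lay above all untreated and all ATRA libraries. JUNB rose 2.68-fold with DAC (log2 1.42, SE 0.16, adjusted p = 7.01e-07) and 2.54-fold with DAC + ATRA (log2 1.35, adjusted p = 1.06e-06). ATRA library 9 lay within the untreated range and the other 2 ATRA libraries above it, and the ATRA difference did not pass (log2 0.44, adjusted p = 0.0805). Without library 9 it was 0.68 with an adjusted p of 1.09e-04.

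JUND, the subunit that most resting cells express (ENST00000252818, chr19:18279694-18281622, minus strand, a single exon), had 1585, 1561 and 1393 normalized reads in untreated cells. It had 3589, 2993 and 4444 with DAC, 1934, 2594 and 1422 with ATRA, and 3720, 3952 and 3324 with DAC + ATRA. As for JUNB, the libraries with DAC lay above all others, and ATRA library 9 fell within the untreated range. The rise was 2.40-fold with DAC (log2 1.26, SE 0.17, adjusted p = 1.10e-05) and 2.42-fold with DAC + ATRA (log2 1.27, adjusted p = 7.74e-06). The ATRA difference of 0.35 on the log2 scale did not pass (adjusted p = 0.214).

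The balance within the JUN family was compared per kilobase of transcript that no other annotated transcript shares. On that scale JUN made up 16.2% of the summed JUN family level in untreated cells, 20.1% after DAC, 7.81% after ATRA and 17.2% after both. JUNB and JUND were at 40.1% and 43.7% in untreated cells, and at 45.4% and 46.7% with ATRA. The low JUN share with ATRA went with the fall of JUN itself, the only JUN gene to pass the test in that comparison.

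The FOS family was less uniform. FOSL2 (FRA2), a FOS-related protein without the strong activation domain of FOS (ENST00000264716, chr2:28392858-28417317, plus strand, 4 exons), had 498, 433 and 448 normalized reads in untreated cells and 578, 589 and 782 with DAC. It had 144, 198 and 126 with ATRA and 294, 336 and 297 with DAC + ATRA. None of the 4 groups overlapped, with DAC highest, untreated next, then DAC + ATRA, and ATRA lowest. FOSL2 fell to 0.335 of the untreated level with ATRA (log2 -1.58, SE 0.15, adjusted p = 1.26e-07), the largest fall with ATRA among the 7 tested members. With DAC + ATRA it fell to 0.672 (log2 -0.57, adjusted p = 0.00304). This second call was lost without untreated library 1 (-0.51, adjusted p = 0.0181), DAC + ATRA library 10 (-0.54, adjusted p = 0.0161) or library 12 (-0.55, adjusted p = 0.0135).

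The 1.40-fold higher FOSL2 level with DAC missed the threshold (log2 0.49, SE 0.15, adjusted p = 0.0113). It passed when only the untreated and DAC libraries were fitted (adjusted p = 0.00346), and without ATRA library 8 (adjusted p = 0.00359) or 9 (adjusted p = 0.00404), although these libraries do not enter the difference. It also passed in a fit of all transcripts past the filter, coding or not (adjusted p = 0.00958). DESeq2 with the deposited size factors, added after seeing the data, called it as well (adjusted p = 0.00358). FOSL2 was the only member tested that differed between DAC + ATRA and DAC alone (log2 -1.06, SE 0.15, adjusted p = 2.83e-05), against 11.3% of all transcripts passing that comparison, 6.08% upwards and 5.26% downwards. It was also higher with DAC + ATRA than with ATRA (log2 1.01, SE 0.15, adjusted p = 1.34e-05). The other 3 FOSL2 transcripts had 23 to 35 reads each in all libraries together.

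**Figure D3:**
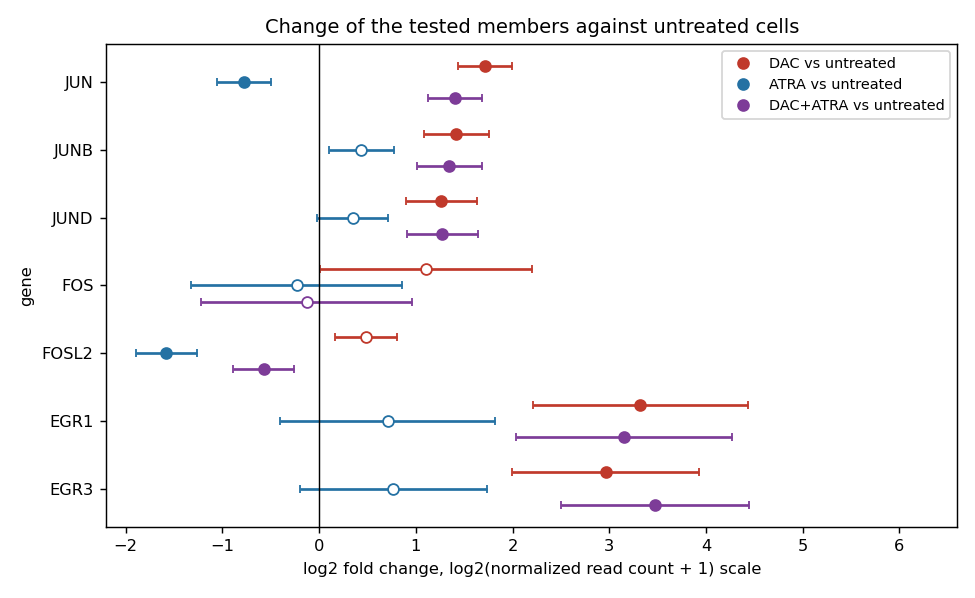
Log2 fold change of the 7 tested members against untreated cells, with 95% intervals, for DAC (red), ATRA (blue) and DAC + ATRA (purple). Filled points passed the test at an adjusted p under 0.01. JUN and FOSL2 lay below 0 with ATRA and passed the test, the full FOS transcript (-0.23) lay below 0 with an interval across it, and EGR1 and EGR3 lay near 3 with DAC and with DAC + ATRA.

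FOS, the best known immediate-early gene and the JUN partner that forms the most active AP-1 dimer, had few reads, and they fell on different pieces of the gene. The reads assigned to a FOS transcript were placed on the bases that no other transcript shares. This assumes that ambiguous reads were left out, which the sources used here do not state. A FOSL1 transcript (ENST00000448083) had 11 reads and 0 unshared bases, so the rule does not hold for every transcript and the placement is uncertain. The full transcript (ENST00000303562, chr14:75278828-75282230, plus strand) has 546 such bases, all at the end of its exon 4, and 130 reads in all. A short transcript without a defined coding sequence (ENST00000556324, chr14:75278828-75279531) has 300 such bases, all inside intron 1 of the full transcript, and 218 reads. A transcript with a retained piece of intron 2 (ENST00000555347, chr14:75280193-75281587) has 185 such bases and 38 reads. Of the remaining 7 FOS transcripts, 2 had 1 read each.

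The full FOS transcript, with its unshared bases at the end of exon 4, was read at 14.7, 10.01 and 2.77 in untreated cells, 20.5, 29.2 and 8.96 with DAC, 11.6, 6.37 and 3.33 with ATRA, and 6.33, 5.26 and 9.89 with DAC + ATRA. The groups overlapped in all comparisons and none passed the test. The largest differences were those between DAC + ATRA and DAC (log2 -1.23, SE 0.52, adjusted p = 0.118) and between DAC and untreated cells (log2 1.10, 95% interval 0.01 to 2.20, adjusted p = 0.0847). With 1 library left out, the difference between DAC and untreated cells ran from 0.5 to 1.56. These values rest on 3 to 30 reads per library, and libraries of the same group differed widely.

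For the transcript with its unshared bases in intron 1, called intronic here, the picture was sharper. The intronic transcript had normalized read counts of 20.2, 8.19 and 5.54 in untreated cells, 37.8, 39.0 and 42.8 with DAC, 16.9, 17.3 and 5.83 with ATRA, and 6.33, 8.42 and 7.41 with DAC + ATRA. The 3 DAC libraries lay above all others, and the DAC + ATRA libraries lay within the untreated range. In a fit of all 19373 transcripts past the same filter, coding or not, it was 3.76-fold higher with DAC than in untreated cells (log2 1.91, SE 0.39, adjusted p = 2.84e-04, 33.5% of transcripts called). It was lower with DAC + ATRA than with DAC (log2 -2.29, SE 0.39, adjusted p = 1.28e-04, 8.77% called). Both calls held when any 1 of the 12 libraries was left out. No call was made for it with ATRA (log2 0.27, adjusted p = 0.759, 6.97% called), with DAC + ATRA against untreated cells (-0.38, adjusted p = 0.436, 41.6% called) or against ATRA (-0.65, adjusted p = 0.200, 29.4% called). The DAC effect with and without ATRA differed by -2.56 on the log2 scale (SE 0.56, adjusted p = 0.00782, 1.51% called), but this interaction passed in only 2 of the 12 fits that left out a library, with values down to -3.04 and adjusted p from 4.32e-04 to 0.0354.

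The transcript with the piece of intron 2 was read at 2.76, 0.910 and 0.924 in untreated cells, 6.49, 5.85 and 8.96 with DAC, 3.17, 1.82 and 0.832 with ATRA and 0, 2.11 and 4.94 with DAC + ATRA. It did not reach the filter and was not tested, and its DAC libraries again lay above all others. Summed over all transcripts of the symbol, FOS passed with DAC (log2 1.72, SE 0.41, adjusted p = 0.00177) and between DAC + ATRA and DAC (log2 -1.95, SE 0.41, adjusted p = 0.00194), a sum in which the reads of the intronic transcript were the majority.

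**Figure D4:**
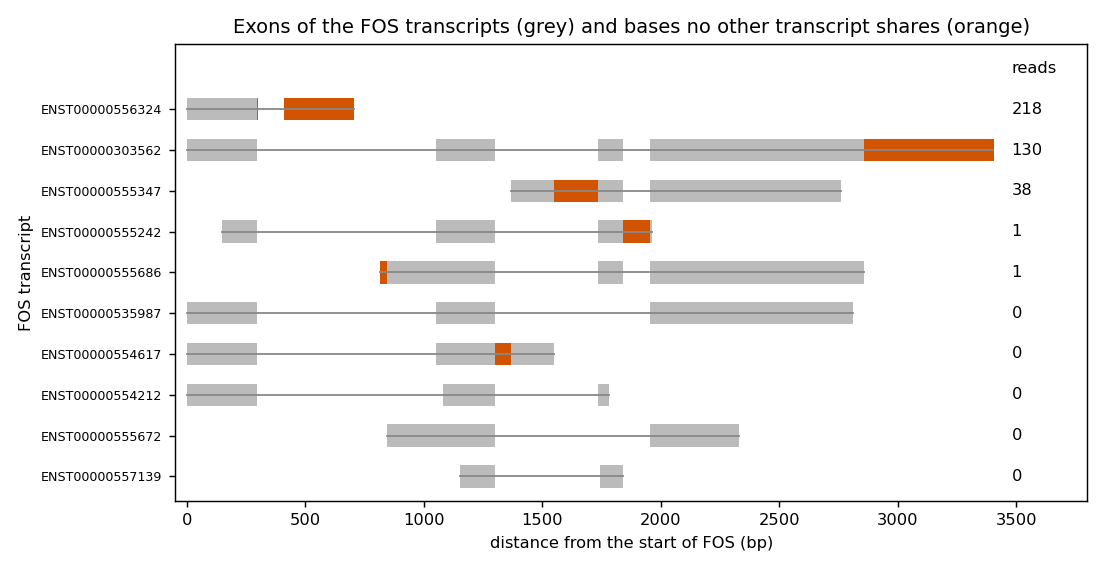
Exons of the 10 FOS transcripts (grey) by distance in bp from the FOS start, with the bases that no other transcript shares in orange and the reads over all 12 libraries at the right. The unshared bases of the top transcript (218 reads) lie in intron 1 of the full transcript on the second line. Those of the latter (130 reads) lie at the end of its exon 4. Whether all reads came from these bases depends on the counting mode, which is not stated.

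FOSB and FOSL1 could hardly be measured. FOSB, the FOS paralog induced alongside it, had 5 reads over 13 transcripts and 12 libraries, but its transcripts overlap so much that 24 bases in all are unshared. FOSL1 (FRA1), which in many cells follows FOS as a later target of AP-1, had 11 reads, 6 of them in DAC library 5, and its full-length transcripts have no unshared base. With so little sequence that can be assigned, these counts do not show that the genes are silent.

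EGR1, a zinc finger factor with 5 CArG boxes in its upstream window as printed above, changed more with DAC than any JUN or FOS gene tested (ENST00000239938, chr5:138465479-138469303, plus strand, 2 exons). Its normalized read counts were 324, 134 and 82.2 in untreated cells, 1000, 1881 and 1927 with DAC, 410, 258 and 148 with ATRA and 1445, 1395 and 1261 with DAC + ATRA. The lowest library with DAC held over 2 times the reads of the highest without it. EGR1 rose 9.99-fold with DAC (95% interval 4.62 to 21.6, log2 3.32, SE 0.50, adjusted p = 2.52e-04) and 8.88-fold with DAC + ATRA (log2 3.15, SE 0.50, adjusted p = 3.00e-04). The wide interval went with the spread of the untreated libraries, in which library 1 held 3.94 times the level of library 3. ATRA libraries overlapped the untreated ones (log2 0.71, 95% interval -0.41 to 1.82, adjusted p = 0.432), and DAC + ATRA libraries overlapped those of DAC (log2 -0.17, adjusted p = 0.869).

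EGR3, a close relative that is itself a target of EGR1 in several cell types (ENST00000317216, chr8:22687659-22693480, minus strand, 2 exons), was barely detected without DAC. Its normalized read counts were 1.84, 0 and 0.924 in untreated cells, 8.65, 21.4 and 10.96 with DAC, 4.22, 1.82 and 0.832 with ATRA and 15.4, 21.1 and 19.8 with DAC + ATRA. All libraries with DAC lay above all libraries without it. The untreated libraries together held 3 reads, the DAC libraries 41 and the DAC + ATRA libraries 53, which gives ratios of 15.1 (95% interval 4.82 to 76.3) and 20.2 (6.53 to 100.9), intervals that cover counting error only. As its place in the test came from the libraries with DAC alone, no p is given for it. EGR2, the remaining EGR gene, had 1 read in all. Its 2 protein-coding transcripts have 44 and 7 unshared bases, so here too the level is unknown.

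Levels of different genes were compared only per kilobase of unshared sequence, which holds if ambiguous reads were left out in counting, as is not stated. In untreated cells the order was JUND (1059 normalized reads per kb), JUNB (973), FOSL2 (474), JUN (393), EGR1 (57.3), the full FOS transcript (16.8) and EGR3 (0.343). JUND and JUNB overlapped between libraries, as did EGR1 (26.2 to 103) and FOS (5.07 to 26.9), while the other neighbours did not. DAC moved JUN (1298) above FOSL2 (670) and brought EGR1 (511, 319 to 614) into the range of FOSL2 (596 to 806). With DAC + ATRA, EGR1 (402 to 461) lay above FOSL2 (303 to 346) in every library. With ATRA alone, JUN (182 to 273) and FOSL2 (130 to 205) overlapped. The place of FOSL2 rests on its 970 unshared bases. Per kilobase of full length, an alternative chosen after seeing the data, FOSL2 was at 68.5 in untreated cells and 46.0 with DAC + ATRA, below JUN (393 and 1045) in all 4 groups, and JUND (784) lay below JUNB (973) in untreated cells.

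Between the treatments, 6 of the 7 members were higher with DAC + ATRA than with ATRA alone and none was lower, all but the full FOS transcript, against 34.8% of all transcripts passing, 25.9% upwards and 8.88% downwards. Without EGR3, which no ATRA library read at 10, it was 5 of 6, against 19% upwards over the transcripts with an ATRA library at 10. JUN differed by 2.19 on the log2 scale (SE 0.13, adjusted p = 2.86e-11), EGR1 by 2.44 (SE 0.50, adjusted p = 0.00231), JUNB by 0.91 (adjusted p = 1.35e-04) and JUND by 0.92 (adjusted p = 3.04e-04). The EGR1 call was lost without ATRA library 8 (2.46, adjusted p = 0.0145) or library 9 (2.07, adjusted p = 0.0177). The interaction term, which asks whether the log2 effects of the 2 drugs added up, passed for none of the 7 members by limma, against 2.46% of all transcripts, 0.787% above 0 and 1.67% below. At an unadjusted p under 0.05 in limma it reached 3 members, JUN (0.47, adjusted p = 0.194), FOSL2 (0.52, adjusted p = 0.208) and JUNB (-0.51, adjusted p = 0.254), and JUNB passed without ATRA library 9 (-0.76, adjusted p = 0.00198). Neither edgeR nor DESeq2 called any of the 7 members in this comparison.

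Where groups of 3 libraries did not overlap, the exact two-sided permutation test over libraries gave p = 0.1, the smallest value that 3 against 3 allows. Libraries of a group also moved together across members. Untreated library 1 held the highest value of its group for all 7 tested transcripts, and ATRA library 9 the lowest of its group for all 7. Library 9 also had the largest size factor of the 12, 1.20, and the part of this in the ATRA comparisons was not tested.

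The lists of related genes that follow are to be read beside the shares of all 9016 transcripts that passed, which were 39.3% for DAC, 9.14% for ATRA and 46.8% for the combination, and no list was tested against them. Other bZIP genes encode possible partners of JUN or FOS proteins. Of 16, 7 were tested, and with DAC 4 rose and 1 fell, with ATRA 1 rose, and with DAC + ATRA 5 rose and 1 fell. JDP2, a dimerization partner that represses AP-1 sites, fell from 31.8 ± 3.02 to 12.8 ± 6.74 with DAC (log2 -1.36, adjusted p = 0.00260) and to 7.08 ± 3.41 with DAC + ATRA (log2 -2.10, adjusted p = 2.62e-05; SD, n = 3 throughout). Summed over all transcripts of each symbol, 6 of 10 bZIP genes tested rose with DAC and 0 fell, so the JDP2 call with DAC was lost there. The EGR relatives and their co-repressors, with 3 of 5 genes tested, gave no call by limma, edgeR or DESeq2 with any treatment, with 1 of the 3 at an unadjusted p under 0.05 in limma with DAC and 0 in the other treatments.

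Upstream of AP-1 and EGR stand SRF with its partners and the MAP kinases. Of SRF and its partners, 4 of 6 were tested and 2 rose with DAC, SRF itself by 0.56 (adjusted p = 3.19e-04) and ELK3 by 0.33 (adjusted p = 0.00764) on the log2 scale. Of these 2, 1 was called by edgeR and by DESeq2, and none of the 4 passed by any of the 3 tools with ATRA (1 at an unadjusted p under 0.05 in limma) or DAC + ATRA (2 of 4). Of 20 MAP kinases and their activators, 9 were tested, and the median log2 fold changes were 0.11 for DAC, -0.07 for ATRA and -0.05 for both drugs. The shares that passed, 3 of 9 with DAC and 4 of 9 with DAC + ATRA, lay near those of all transcripts. After DAC 3 of the 9 rose, MAP3K1 the most (1.07, adjusted p = 7.21e-09). With ATRA 2 fell, MAP3K1 (-0.41, adjusted p = 0.00437) and MAPK13 (-0.65, adjusted p = 0.00796), where edgeR, DESeq2 and size factors from protein-coding transcripts each gave 1 rise and 1 fall. With DAC + ATRA 4 rose, MAP3K8 the most (1.69, adjusted p = 1.13e-05).

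Of 16 MAP kinase phosphatases and Sprouty or SPRED proteins, listed as feedback inhibitors of MAP kinase signalling, 13 were tested. With DAC 11 rose and none fell (median log2 1.04), with DAC + ATRA 10 rose and none fell (median 0.81), and with ATRA 2 rose (median 0.12). With DAC + ATRA, edgeR, DESeq2, library size scaling, size factors from protein-coding transcripts and no filter each gave 9 rises and 1 fall. SPRY4, an inhibitor of receptor tyrosine kinase signalling, had 0.607 ± 1.05 normalized reads in untreated cells, 39.9 ± 11.2 with DAC, 39.5 ± 3.22 with DAC + ATRA and 0 with ATRA. It entered the test only through the libraries with DAC, so neither a fold nor a p is given, and without it 10 of 12 genes rose with DAC and 9 of 12 with DAC + ATRA. DUSP7, an ERK phosphatase, marked the lower end of the genes that rose, with 0.48 with DAC (adjusted p = 6.08e-04) and 0.50 with DAC + ATRA (adjusted p = 3.52e-04). The 2 that rose with ATRA were SPRY2 (1.23, adjusted p = 2.35e-06) and DUSP6, the ERK phosphatase (1.21, adjusted p = 3.29e-05).

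Most of the other immediate-early genes tested rose with DAC and with DAC + ATRA. Of 41, 25 were tested. By limma, 20 rose and 1 fell with DAC (median log2 1.60), 19 rose and 1 fell with DAC + ATRA (median 2.02), and 6 rose and none fell with ATRA (median 0.14). With ATRA, edgeR called 8 and DESeq2 called 7 in either direction. RHOB, a small GTPase of endosomes, went from 0.607 ± 1.05 normalized reads in untreated cells to 223 ± 80.9 with DAC and 261 ± 30.6 with DAC + ATRA, and was listed at 0 in all ATRA libraries. In RHOB and 8 other genes of the list no untreated library reached 10, so that they entered the test through treated libraries. Without these 9, 11 of 16 genes rose with DAC and 1 fell (median 1.06), 10 rose and 1 fell with DAC + ATRA (median 1.18), and 4 rose with ATRA (median 0.11). ZFP36L2, a protein that destabilizes AU-rich mRNAs, was the gene that fell by limma, by 0.50 with DAC (adjusted p = 6.02e-04) and by 1.21 with DAC + ATRA (adjusted p = 6.22e-09) on the log2 scale. IER2 was also lower with DAC but missed the threshold (log2 -0.47, adjusted p = 0.0252). With ATRA the changes ran from SOCS3, a feedback inhibitor of cytokine receptors (0.58, adjusted p = 0.00261), to TRIB1, a pseudokinase that promotes degradation of C/EBPα (3.50, adjusted p = 2.32e-14). Of the 16 genes of this list that were not tested, MYC, MCL1 and NFKBIA are examples chosen after their values were seen, with means of 0.910 to 2.43, 0 to 4.30 and 0.704 to 2.62 over the groups. Such low values in genes with overlapping transcripts are not evidence that the genes are off.

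Of 28 genes known from textbooks as AP-1 or EGR targets, 17 were tested, and 14 rose with DAC and none fell (median log2 1.30). With DAC + ATRA 13 rose and 2 fell (median 1.38), and with ATRA 5 rose and 3 fell (median 0.04). These counts are by limma, which called 8 with ATRA, where edgeR and DESeq2 each called 6 in either direction. Without the genes that no untreated library read at 10, 12 of 15 rose with DAC, 12 rose and 2 fell with DAC + ATRA, and 4 rose and 2 fell with ATRA. MMP9, a matrix metalloproteinase, rose from 14.1 ± 4.71 normalized reads to 1394 ± 110 with DAC (log2 6.58, adjusted p = 1.31e-13) and 806 ± 80.5 with DAC + ATRA (log2 5.78, adjusted p = 5.75e-13). TGFB1, a cytokine, had the smallest rise among the 14 with DAC (0.69, adjusted p = 0.00375). With ATRA, HMOX1, heme oxygenase 1, rose most (2.20, adjusted p = 4.17e-08) and MMP1, interstitial collagenase, fell most (-1.84, adjusted p = 0.00721), the latter at 4.27 ± 1.88 normalized reads in untreated cells and 0.607 ± 1.05 with ATRA. PDGFA, a growth factor subunit, fell with DAC + ATRA (-0.67, adjusted p = 6.61e-04). These lists describe genes that rise under many conditions, and whether AP-1 or EGR proteins acted on them was not measured.

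**Figure D5:**
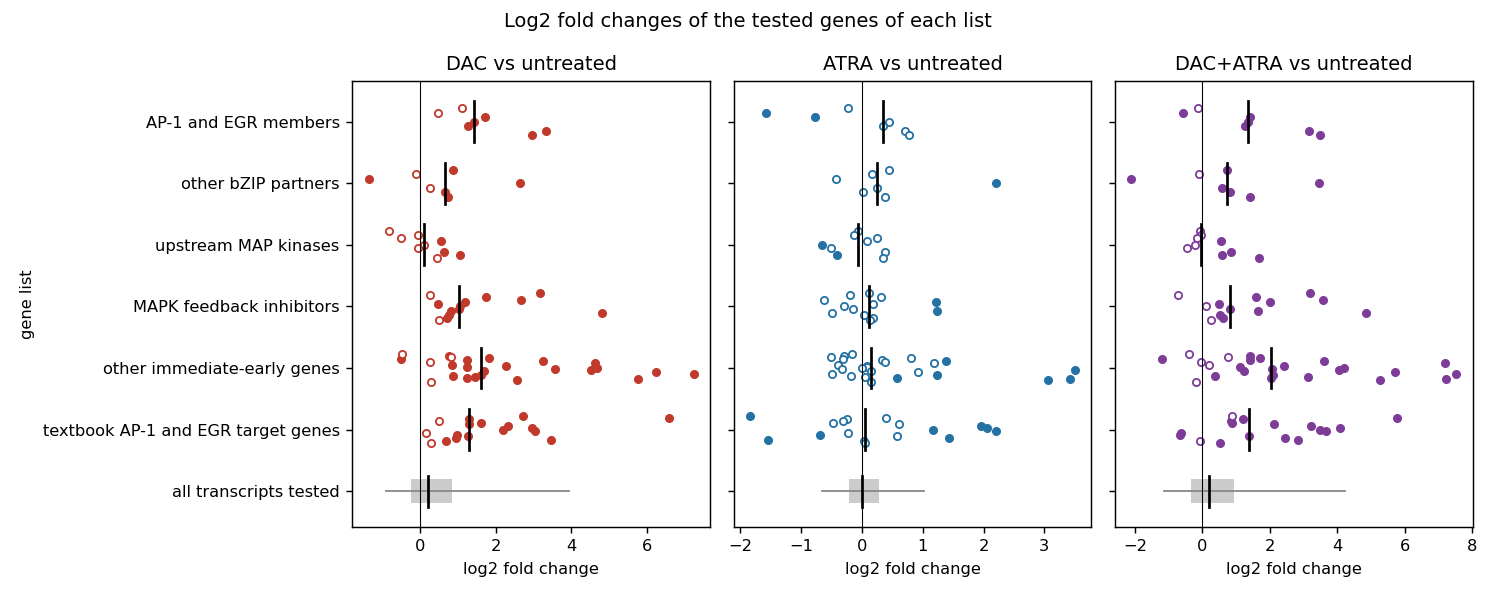
Log2 fold change of each tested gene (points) of 6 lists in the 3 treated groups against untreated cells, with list medians as black bars. Filled points passed the test, and the lowest line gives all 9016 transcripts (box, quartiles; line, central 90%; bar, median). The medians of the feedback inhibitors, the immediate-early genes and the targets lay above that of all transcripts with DAC and with DAC + ATRA, and near 0 with ATRA.

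Genes of the handling and heat shock response can rise with immediate-early genes when cells are stressed. Their 12 genes summed to 4527 to 5379 normalized reads in untreated libraries, 7022 to 7276 with DAC, 4021 to 6061 with ATRA and 7340 to 7898 with DAC + ATRA. Of 7 tested, 3 rose and 1 fell with DAC, none passed with ATRA by limma, edgeR or DESeq2 (2 at an unadjusted p under 0.05 in limma), and 4 rose and 1 fell with DAC + ATRA. BAG3, a chaperone regulator, rose from 173 ± 11.99 to 1157 ± 37.0 with DAC (log2 2.73, adjusted p = 8.16e-14) and 1343 ± 69.4 with DAC + ATRA (log2 2.95, adjusted p = 1.49e-14), while 1 short transcript of HSPD1, a mitochondrial chaperonin, with 22.9 ± 3.95 normalized reads in untreated cells, fell (log2 -1.15 and -1.20, adjusted p = 0.00453 and 0.00278). HSPA1B was listed at 0 in all libraries, which does not by itself show that it is silent. The summed level was thus higher in the same 6 libraries in which JUN, JUNB, JUND and EGR1 were higher, and its part in those results was not tested.

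Some markers also changed. Of 12 myeloid markers, 7 were tested by limma. With DAC 3 rose and 1 fell, with ATRA 2 rose and 1 fell, and with DAC + ATRA 3 rose and 1 fell. Over all transcripts 39.3%, 9.14% and 46.8% passed in these comparisons. SPI1, CD4 and FCGR1A did not pass against untreated cells with any treatment, while CEBPA rose with all 3 (log2 0.94, 0.67 and 0.74). ITGAM (CD11b), the myeloid integrin, rose in each treated group, by 2.08 after DAC (adjusted p = 3.51e-13), 2.30 after ATRA (adjusted p = 3.50e-13) and 3.75 after both (adjusted p = 2.08e-17) on the log2 scale. MPO fell with all 3 treatments (-0.99, -0.67 and -1.80), and LYZ, lysozyme, was the myeloid marker with the largest rise after DAC (2.27, adjusted p = 1.10e-10). CD79A rose with DAC (1.96), ATRA (1.22) and DAC + ATRA (3.34), and the platelet integrin ITGA2B rose with DAC (2.77) and DAC + ATRA (2.37). The part of these changes in the results for the AP-1 and EGR genes was not tested.

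Across the 12 libraries, the genes most like each member were named by Pearson correlation of log2(normalized read count + 1) among 4653 candidate genes with a mean of at least 50. JUN was most like CSPG4 (r = 0.990), SLC35E4 and GJA1. JUNB was most like RFX1 (r = 0.996), ZNF710 and SUPT6H, and JUND like LYL1 (r = 0.988), RFX1 and SUPT6H. EGR1 was most like CHPF2 (r = 0.988), FLCN and SIN3B, and EGR3 like TNKS2 (r = 0.986), GOSR2 and ZNF708. FOSL2 was most like EMILIN2 (r = 0.934), NOG and CHSY1, and the full FOS transcript like ATL3 (r = 0.869), RAB8B and TAF9B. These values rest on n = 12 libraries in 4 groups, which share the group differences and the size factors, and are given as a description.

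After the group means were removed, JUNB still followed JUN (r = 0.909) and JUND (r = 0.902) from library to library, and FOSL2 followed JUND (r = 0.896). EGR1 followed EGR3 (r = 0.676) and the full FOS transcript (r = 0.635) less closely, and JUND and EGR3 hardly at all (r = 0.0185). The 12 libraries share 4 removed means and their size factors, and few reads of FOS and EGR3 enter these values.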

How the data were processed

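RNA-seq of 12 U937 libraries (4 groups of 3, grouped by the treatment in the labels) was analysed. Per the labels and the paper, total RNA was depleted of ribosomal RNA, strand-specific paired-end libraries were sequenced, and the authors aligned reads to hg38 with STAR and counted them with HTSeq. Tool versions, annotation release, counting mode and strand setting are not given in the sources used here. The deposited values (signal) were made by the authors from reads counted per transcript, with 1 size factor per library as divisor (0.809 to 1.20). Whole reads were recovered (100% of values within 0.01 of a read), 8042435 to 10683593 per library, so rare transcripts are imprecise. The intervals of the EGR3 read ratios cover counting error only. All other intervals come from the limma fit and include the spread between libraries.

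Transcripts were typed by GENCODE 44 (174768 matched, 23014 not matched). Of the 90879 taken as protein-coding, 15414 were assigned by symbol. The 9016 with a value of 10 or more in 3 or more libraries were tested with limma 3.58.1 (trend, robust) on log2(value + 1), all 12 libraries in 1 fit, Benjamini-Hochberg adjusted p under 0.01. Alternatives were edgeR 4.0.16 and DESeq2 1.42.0 on recovered reads, other scaling, filters, pseudocounts and left-out libraries. Named were all 10 members by their protein-coding transcript with the highest mean, the called gene with the highest and the lowest change of each list and comparison with untreated cells, and the 3 genes most correlated with each member. Members and lists were chosen with earlier results of these data known. On data simulated for the DAC comparison over 9016 transcripts, limma found 61% of log2 changes of 1 and 87% of log2 changes of 2, with 1 false call in 149. The simulated libraries were independent, with the same dispersion for every transcript and no shift shared by a library. These rates therefore do not carry over to members with a wide spread, such as EGR1 (SD 70.7% of the mean in untreated libraries). Sequences were read from hg38. Some genes and sequences that these rules name are not reported here.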

Additional observations from a re-analysis of the deposited data

Results flagged for a closer look

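The FOS transcript whose unshared bases lie in intron 1 is outside the protein-coding set and stood out by its rise with DAC (log2 1.91) and by a DAC effect that differed with and without ATRA (interaction -2.56, adjusted p = 0.00782 by limma over 19373 transcripts). The first held without any 1 library, while the interaction passed in 2 of 12 such fits.

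Among the genes of the lists, 9 had a DAC effect that differed with and without ATRA by the interaction term (limma, adjusted p under 0.01). These were 1 of 13 feedback inhibitors, 4 of 25 immediate-early genes, 3 of 17 targets and 1 of 7 myeloid markers tested. Over all 9016 transcripts 2.46% passed, 0.787% above 0 and 1.67% below. The difference was positive for BHLHE40 (1.65), DUSP5 (1.53) and IER5 (0.95), whose log2 change with DAC was more positive in the presence of ATRA. It was negative for TRIB1 (-3.97), HMOX1 (-1.56), IL1B (-1.06), BTG2 (-1.01), PDGFA (-0.98) and ITGAM (-0.63). TRIB1 went from 33.6 ± 3.699 normalized reads in untreated cells to 790 ± 80.5 with DAC, to 391.9 ± 41.1 with ATRA and to 569 ± 32.97 with both drugs (SD, n = 3). PDGFA went from 105 ± 5.32 to 209 ± 16.98 with DAC, to 64.7 ± 5.27 with ATRA and to 65.6 ± 7.55 with both.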

How the results depend on the processing

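The 7 tested members gave 42 values, 20 of them called. Of 497 alternative values for these 20, 490 kept direction and call, 7 lost the call and none reversed. The 20 include the calls of EGR3, which were fixed by the filter, so its alternatives say nothing on how firm a call is. No paired analysis was possible because the columns carry library numbers and no replicate numbers. DAC + ATRA against DAC gave 2 members called after summing by symbol and with edgeR leaving out DAC library 6 (an alternative chosen after seeing the data), against 1. The interaction gave 0 to 1 with a library left out. SRF and its partners with DAC gave 1 in place of 2 with edgeR, DESeq2, library size scaling, size factors from protein-coding transcripts and no filter on low values. The MAP kinases with DAC gave 5 after summing and with ATRA 1 with a pseudocount of 0.1. Without the filter, EGR1 (2.44, adjusted p = 0.0120) and JUND (0.92, adjusted p = 0.0111) missed the threshold between DAC + ATRA and ATRA. The causes were not tested.

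Reversals concerned uncalled values near 0. FOS with ATRA was 0.04 summed. FOS between DAC + ATRA and ATRA was -0.07 with edgeR, -0.08 with DESeq2, -0.28 summed and -0.10 with edgeR without DAC library 6. Between DAC + ATRA and DAC, JUNB was 0.07 with the latter, and JUND -0.01 with library size scaling and -0.00 with DESeq2 on the deposited size factors (added after seeing the data). With libraries left out, FOS ran from -0.83 to 0.20 with ATRA, -0.73 to 0.30 with DAC + ATRA and -0.28 to 0.49 between these. JUNB ran from -0.13 to 0.03 and JUND from -0.13 to 0.16 between DAC + ATRA and DAC, and the EGR3 interaction from -0.61 to 0.15. The intronic FOS transcript ran from -0.10 to 0.75 with ATRA and -0.74 to 0.11 with DAC + ATRA, and its interaction missed the threshold with a pseudocount of 0.1 (-2.72, adjusted p = 0.0191). Leaving out libraries was not run for the lists. The median of all transcripts with DAC was 0.22 with the deposited size factors and 0.02 with edgeR, which called 2294 up and 1604 down against 2763 and 784.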
